A study of Homo sapiens with 4 samples.

Results

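The genes described here were chosen by name: the FOS family (FOS, FOSB, FOSL1 and FOSL2), the JUN family (JUN, JUNB and JUND), EGR1, IER2 and IER3. These were 10 of the 20286 genes in the files, and all 10 were abundant enough to be tested. The choice was made with earlier results of these data known, so comparisons of the 10 with all tested genes are descriptions. RNA was sequenced from HLE, an established line of human hepatocellular carcinoma, in 2 groups with 2 libraries each. Cells of the vector group stably carried an empty vector, and cells of the CYR61 group stably expressed CYR61 (current symbol CCN1), a matricellular protein that cells secrete and that binds integrins. Both groups were grown in the same serum-containing medium with no further treatment. Per the series description the replicates were separate cultures of the whole population of each line. The p-values thus measure the spread between cultures together with that between their libraries, part of which followed GC content (below). They do not cover the spread between stable lines made anew.

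AP-1 is a dimeric transcription factor. Proteins of the FOS family pair with proteins of the JUN family through leucine zippers, JUN proteins also pair with each other, and the dimers bind a short palindromic DNA site. FOS, JUN, JUNB, FOSB, EGR1, IER2 and IER3 are immediate-early genes, transcribed within minutes of growth factor, serum or stress signals from factors already present in the cell. FOSL1 and FOSL2 respond more slowly and stay on in many tumour cells, and JUND is transcribed at a steady level in many cell types. In liver, JUN is known for its part in regeneration and in hepatocyte tumours.

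The libraries held 16186988 to 21588822 estimated counts. CYR61, the check of the labels, had a level of 222 and 218 CPM (counts scaled to a common library size) with the vector and of 8091 and 8620 CPM with CYR61. Of 7 hepatocyte markers, ALB, APOA2 and TTR were at 0 in the 4 libraries. TF was at 10.15 to 11.69 CPM, HNF4A at 3.57 to 5.79 CPM, SERPINA1 at 0.744 to 1.13 CPM and APOA1 at 0 to 0.106 CPM. The 7 summed to 17.4 and 16.8 CPM with the vector and 14.8 and 14.9 CPM with CYR61. The epithelial keratins KRT8 and KRT18 summed to 3762 and 3237 CPM with the vector and 4197 and 4661 CPM with CYR61, with no overlap between groups in either sum. The fibroblast markers COL1A1, COL1A2, PDGFRA, PDGFRB and THY1 summed to 46.61 and 38.1 CPM with the vector and 34.75 and 36.65 CPM with CYR61. These sums did not overlap between groups. Most came from COL1A1 (31 and 22.92 CPM, then 23.07 and 23.93 CPM) and PDGFRB (14.81 and 14.59 CPM, then 10.98 and 11.97 CPM). The groups overlapped for COL1A1 and not for PDGFRB. The blood markers PTPRC, CD14, CD3E, HBB and LYZ summed to 0.272 to 0.744 CPM. The 4 mitochondrial transcripts used as a sign of RNA quality summed to 21530 and 22590 CPM in vector and 21680 and 20870 CPM in CYR61 libraries. Among them MT-ND1 was higher with CYR61 (1998 and 1674 CPM) than with the vector (1037 and 1230 CPM), and MT-CO1 lower (11930 and 11870 CPM, against 13090 and 13530 CPM). The part of these differences in the results was not tested. Libraries of a group differed along the GC content of transcripts. Over 10378 genes, Spearman's rho between GC content and the log2 difference of CPM was -0.73 within the vector group (replicate 2 minus replicate 1) and 0.78 within the CYR61 group, taken the same way (a description across genes, which are not independent replicates).

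Most of these AP-1 and immediate-early genes had less RNA in CYR61-expressing cells. Of the 10, 6 fell (IER3, EGR1, JUNB, JUN, FOSL1 and FOS, with edgeR adjusted p below 0.05) and 0 rose. FOSL2, IER2, FOSB and JUND were not called. In bulk RNA, fewer expressing cells and less RNA per cell cannot be told apart. In all, 4.56% of the 12698 tested genes were called lower and 1.83% higher. The median log2 fold change of the 10 was -0.68, beside -0.006 over the tested genes, and fold changes are CYR61 minus vector throughout. At an unadjusted p below 0.05, 8 of the 10 were lower and 0 higher, beside 13.2% and 9.77% of all tested genes. DESeq2 called 7 lower and 0 higher, beside 4.76% and 3.2% of the 11768 genes to which it gave an adjusted p. These shares over all genes are also the ones to set beside the counts of the pathway lists. Both CYR61 libraries were below both vector libraries for 9 of the 10 genes, JUND being the exception, and 27.7% of tested genes had the same separation. Separation in the other direction was seen for 0 of the 10 and for 23.9% of tested genes.

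**Figure D1:**
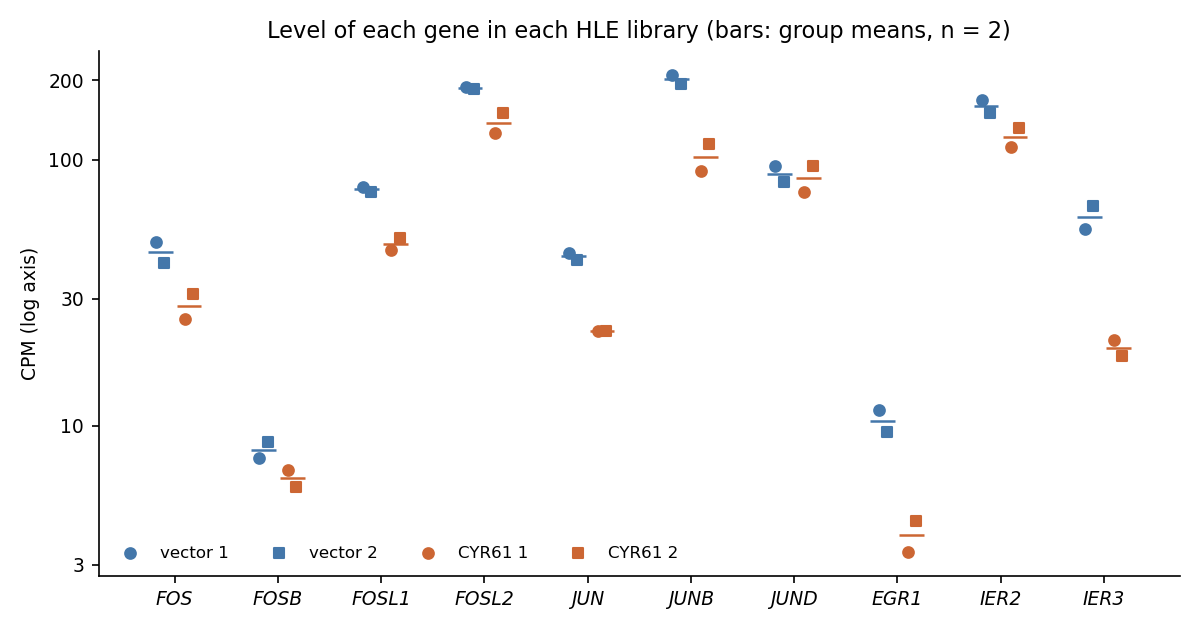
CPM (log axis) of the 10 genes in the 2 vector (blue) and 2 CYR61 (orange) libraries of HLE cells, with circles for replicate 1, squares for replicate 2 and short bars for group means. The groups are apart for 9 genes, and for JUND the CYR61 libraries (75.6 and 94.8 CPM) span the vector libraries (94.7 and 82.9 CPM).

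IER3 had the largest change of the 10. IER3 (ENSG00000137331, chr6:30743199-30744554, GRCh38, minus strand) encodes a short-lived regulator of cell survival that is also a target of NF-kappaB and p53. Its level was 55.1 and 67 CPM in the vector libraries and 21 and 18.2 CPM in the CYR61 libraries. The lowest vector library was 2.62 times the highest CYR61 library. IER3 fell 3.11-fold, from 61 ± 8.45 to 19.6 ± 1.94 CPM (mean ± SD, n = 2 each; log2 fold change -1.64, SE 0.16, edgeR adjusted p = 0.000365). Its fold change ranked 105 from the lowest of 12698. The antisense gene IER3-AS1 shares 359 exonic bases with IER3, and without known strand its reads cannot be told apart from those of IER3.

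EGR1 was the least abundant of the genes that fell. EGR1 (ENSG00000120738, chr5:138465490-138469315, plus strand) encodes a zinc finger transcription factor induced by ERK signalling through serum response factor. The vector libraries held 11.5 and 9.42 CPM (216 and 208 counts) and the CYR61 libraries 3.35 and 4.39 CPM (72 and 70 counts). Both CYR61 libraries were thus well below the lower vector library. EGR1 fell 2.72-fold, from 10.4 ± 1.44 to 3.87 ± 0.733 CPM (n = 2 each; log2 fold change -1.44, SE 0.22, edgeR adjusted p = 0.00478).

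EGR2, EGR3 and EGR4, the other EGR genes, were too low to be tested. EGR2 had 0.319 and 0.317 CPM in vector and 0.0465 and 0.0627 CPM in CYR61 libraries. NAB1 and NAB2, the corepressors that bind EGR proteins, were not called (log2 fold changes -0.28 and -0.16).

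The promoters of EGR1, JUNB and JUND are shown because EGR1 and JUNB fell and JUND was not called, although JUNB and JUND are members of one family. Each sequence is the stretch of 250 bases before the RefSeq start of the gene (GRCh38.p14), written 5′ to 3′ on the strand of the gene. Capitals mark matches, on either strand, to the motifs named after the sequences.
EGR1, chr5:138465229-138465478, plus strand: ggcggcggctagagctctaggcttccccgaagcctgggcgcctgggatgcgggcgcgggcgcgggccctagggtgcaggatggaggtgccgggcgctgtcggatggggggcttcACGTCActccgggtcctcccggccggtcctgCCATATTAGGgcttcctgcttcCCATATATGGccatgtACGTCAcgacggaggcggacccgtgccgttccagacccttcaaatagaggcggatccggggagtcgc
JUNB, chr19:12791236-12791485, plus strand: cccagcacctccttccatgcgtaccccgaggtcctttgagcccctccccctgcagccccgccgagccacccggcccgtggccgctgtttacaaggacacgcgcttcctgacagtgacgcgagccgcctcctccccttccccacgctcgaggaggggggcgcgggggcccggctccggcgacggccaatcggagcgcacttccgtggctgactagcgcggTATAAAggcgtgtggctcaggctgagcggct
JUND, chr19:18281623-18281872, minus strand: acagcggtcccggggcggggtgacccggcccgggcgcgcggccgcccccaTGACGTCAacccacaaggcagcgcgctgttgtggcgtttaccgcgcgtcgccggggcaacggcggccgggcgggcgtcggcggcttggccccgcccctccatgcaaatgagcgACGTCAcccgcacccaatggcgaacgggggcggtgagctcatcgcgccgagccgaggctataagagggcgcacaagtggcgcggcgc

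The motifs were searched on both strands of the same window in 35116 RefSeq promoters, among which 8 of the 10 genes had an entry. The CArG box, the site of serum response factor, was found in EGR1 alone of the 8, as CCATATTAGG and CCATATATGG, and 1.16% of all windows held a match. TGACGT, the core of the cyclic AMP response element, was found in FOS, FOSB, FOSL2, JUND and EGR1 and in 7.1% of all windows. The full element TGACGTCA, which contains that core, was found in JUND and in 1.65% of all windows. TGACATCA was found in JUN, where it is known as the proximal AP-1 site, and in 2.37% of windows. The consensus AP-1 site TGAGTCA was in 0 of the 8 windows and in 4.2% of all windows, and the EGR site GCGTGGGCG in 0 of the 8 and 0.72%. TATAAA was found in FOS, FOSB and JUNB and in 10.7% of windows. These are matches of letters in 1 window per gene, and serum response elements farther upstream lie outside it.

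In the JUN family, JUNB and JUN fell and JUND was not called. JUNB (ENSG00000171223, chr19:12791496-12793315, a gene of 1 exon) encodes a JUN protein that can oppose JUN and is also induced by TGF-beta. It was at 210 and 193 CPM in the vector libraries and 91.3 and 115 CPM in the CYR61 libraries, with no overlap. JUNB fell 1.96-fold (201 ± 12.1 to 103 ± 16.5 CPM, n = 2 each; log2 fold change -0.97, SE 0.14, edgeR adjusted p = 0.00264). Its exon shares 259 bases with HOOK2 on the opposite strand, whose own level was 20.5 and 21.3 CPM in vector and 17 and 21.6 CPM in CYR61 libraries.

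JUN (ENSG00000177606, chr1:58780788-58784327, minus strand, 1 exon) encodes the founding partner of FOS. It was at 44.6 and 42 CPM in vector libraries and 22.7 and 22.6 CPM in CYR61 libraries, the closest pair of replicates among the 10 genes. JUN fell 1.91-fold (43.3 ± 1.87 to 22.6 ± 0.0268 CPM, n = 2 each; log2 fold change -0.94, SE 0.14, edgeR adjusted p = 0.00361).

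JUND (ENSG00000130522, chr19:18279760-18281622, minus strand, 1 exon) encodes a JUN protein that can restrain growth. It was at 94.7 and 82.9 CPM in vector and 75.6 and 94.8 CPM in CYR61 libraries. The groups overlapped, and the log2 fold change was -0.06 (SE 0.14, 95% interval -0.37 to 0.25, edgeR adjusted p = 0.846). Its sign turned when vector 1 (0.04) or CYR61 1 (0.11) was left out and on removal of the GC trend (0.10). JUND had the highest transcript GC content of the 10 genes, 69.7%, beside 52.6% for FOS, the lowest.

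Per kilobase of merged exons, a scale that allows for exon length, JUNB was the most abundant JUN gene in each library. JUNB was at 115 and 106 CPM per kb in vector and 50.1 and 63 CPM per kb in CYR61 libraries. JUND was at 50.8 and 44.5 and at 40.6 and 50.9 CPM per kb, and JUN at 12.6 and 11.9 and at 6.4 and 6.39 CPM per kb. The order JUNB, JUND, JUN was the same in the 4 libraries. The summed level of the family was 179 and 162 CPM per kb in vector and 97.2 and 120 CPM per kb in CYR61 libraries.

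The make-up of the JUN family differed between the groups. JUND made up 28.4% and 27.4% of the family with the vector, against 41.8% and 42.3% with CYR61. The share of JUNB was 64.5% and 65.2% with the vector, against 51.6% and 52.4% with CYR61, and that of JUN 7.06% and 7.31% and then 6.59% and 5.31%. The ratio of JUNB to JUND per kb was 2.27 and 2.38 in vector and 1.24 in both CYR61 libraries. On the log2 scale that ratio changed by -0.91, and its range within each group was small against this difference. The exact permutation test gave p = 0.333 (two-sided), the smallest p that 6 splits of 4 libraries allow.

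**Figure D2:**
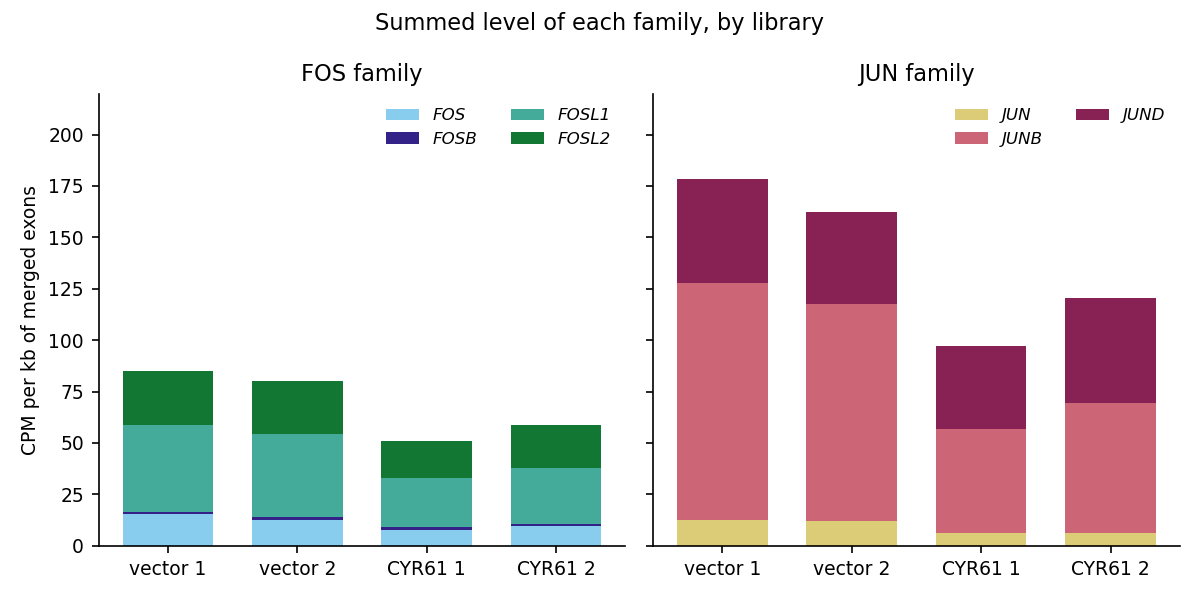
Summed level of the FOS family (left) and the JUN family (right) in CPM per kb of merged exons, stacked by gene, in the 2 vector and 2 CYR61 libraries. The JUNB and JUN segments are shorter in the CYR61 libraries, while the JUND segment is of like height in the 4 bars (40.6 to 50.9 CPM per kb).

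In the FOS family, FOSL1 and FOS fell, and FOSL2 and FOSB were not called. FOSL1 (ENSG00000175592, chr11:65892049-65900573, minus strand) encodes FRA1, a FOS protein without a transactivation domain that ERK signalling stabilises in many carcinoma cells. It was at 79.4 and 75.8 CPM in vector libraries and 45.6 and 50.8 CPM in CYR61 libraries, with no overlap. FOSL1 fell 1.61-fold (77.6 ± 2.53 to 48.2 ± 3.66 CPM, n = 2 each; log2 fold change -0.69, SE 0.13, edgeR adjusted p = 0.0111).

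FOS (ENSG00000170345, chr14:75278774-75282230, plus strand) encodes the FOS protein of the classical AP-1 dimer. It was at 49.2 and 40.8 CPM in vector libraries and 25.1 and 31.3 CPM in CYR61 libraries, and the nearest libraries of the groups were 1.31-fold apart. FOS fell 1.6-fold (45 ± 5.94 to 28.2 ± 4.34 CPM, n = 2 each; log2 fold change -0.68, SE 0.16, edgeR adjusted p = 0.0356). With vector 1 or CYR61 1 left out, FOS was not called, at smaller changes (-0.54 and -0.51 on the log2 scale). It was called when vector 2 (-0.80) or CYR61 2 (-0.84) was left out.

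FOSL2 (ENSG00000075426, chr2:28392448-28417312, plus strand) encodes FRA2, the other FOS protein without a transactivation domain. It was at 189 and 186 CPM in vector libraries and 126 and 150 CPM in CYR61 libraries. The libraries did not overlap, but the log2 fold change of -0.44 (SE 0.12, 95% interval -0.71 to -0.17) had an edgeR adjusted p of 0.0605. FOSL2 was called with the GC trend removed, alone (-0.37, edgeR adjusted p = 0.00373) or with the replicate block (0.0149). Without a filter (edgeR adjusted p = 0.012) and by DESeq2 (adjusted p = 0.044) it was also called. With the replicate block alone it was not (edgeR adjusted p = 0.37). Log2 changes with each library left out in turn were -0.57 (CYR61 2), -0.45 (vector 2), -0.43 (vector 1) and -0.31 (CYR61 1).

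FOSB (ENSG00000125740, chr19:45467995-45475179, plus strand), which also gives rise to a truncated splice form that gene counts do not separate, was the scarcest FOS gene. It had 7.54 and 8.65 CPM (142 and 191 counts) in vector and 6.79 and 5.89 CPM (146 and 94 counts) in CYR61 libraries. The log2 fold change was -0.35 (SE 0.20, 95% interval -0.79 to 0.09, edgeR adjusted p = 0.328), so a fall of the size seen for FOSL1 lies within the interval.

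Per kilobase, the order of the FOS family was FOSL1, FOSL2, FOS, FOSB in each library. These levels and the shares below depend on the length used. Merged exons were longer than the longest transcript for FOS (3238 against 2158 bases) and FOSB (5553 against 3775 bases). The same held for FOSL1 (1887 against 1669 bases) and FOSL2 (7157 against 6708 bases). The summed level of the family was 85 and 80.3 CPM per kb in vector and 50.8 and 58.6 CPM per kb in CYR61 libraries. The shares differed by fewer percentage points than in the JUN family. FOSL1 made up 49.5% and 50.1% with the vector, against 47.6% and 46% with CYR61, and FOSL2 31% and 32.3% and then 34.7% and 35.7%. FOS made up 17.9% and 15.7% with the vector and 15.3% and 16.5% with CYR61, where the groups overlap, and FOSB 1.6% to 2.41% over the 4 libraries. The ratio of FOSL1 to FOSL2 per kb was 1.6 and 1.55 with the vector, against 1.37 and 1.29 with CYR61 (log2 change -0.24, exact permutation p = 0.333, two-sided, the smallest possible). This and the ratio of JUNB to JUND were 2 of 5 such ratios computed.

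IER2 (ENSG00000160888, chr19:13150415-13154908, plus strand) encodes a nuclear protein induced by serum. It was at 168 and 151 CPM in vector and 112 and 132 CPM in CYR61 libraries, with no overlap. The log2 fold change of -0.39 (SE 0.13, 95% interval -0.67 to -0.11) had an edgeR adjusted p of 0.1. IER2 was called with the GC trend removed, at a smaller change (-0.25, edgeR adjusted p = 0.0112), and without a filter (0.0366). It was not called with the replicate block (edgeR adjusted p = 0.483), nor with the GC trend removed and the block (0.0625). Log2 changes with each library left out in turn were -0.51 (CYR61 2), -0.46 (vector 2), -0.31 (vector 1) and -0.26 (CYR61 1). An antisense gene shares 946 exonic bases with IER2.

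Removal of the GC trend left 8 of the 10 genes called lower, all but FOSB and JUND, where 12.1% of the genes tested were called lower and 16.6% higher. Within groups, most of the 10 genes moved with the libraries: CYR61 2 was above CYR61 1 by 0.24 to 0.34 on the log2 scale for FOS, FOSL2, JUNB, JUND, EGR1 and IER2. IER3 and FOSB went the other way (-0.20 and -0.19). With the trend removed the SE of JUNB was 0.065 (log2 fold change -0.82) and that of FOSL1 0.074 (-0.56).

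**Figure D3:**
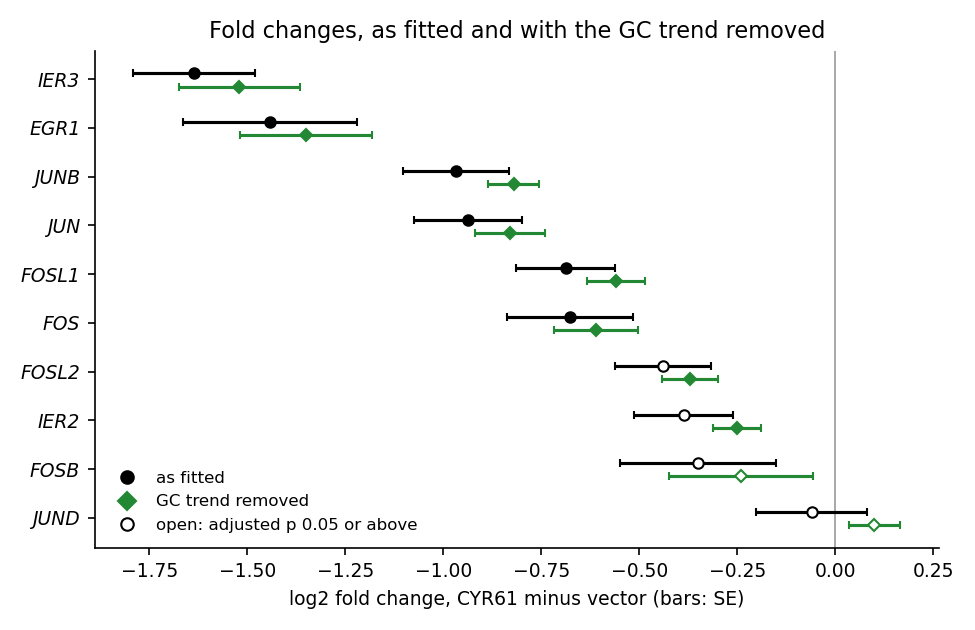
Log2 fold change (CYR61 minus vector, x axis) with its SE for each of the 10 genes, as fitted (black circles) and with the per-library GC trend removed (green diamonds), filled where the adjusted p is below 0.05. The values run from -1.64 for IER3 to -0.06 for JUND as fitted, and JUND lies at 0.10 with the trend removed.

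Other genes of the pathway were described by lists of dimer partners, immediate-early genes, upstream kinases and factors, and targets. Of 15 tested genes listed as dimer partners of FOS and JUN proteins (of 18 listed), 5 fell and 0 rose, with a median log2 fold change of -0.38. At an unadjusted p below 0.05, 10 were lower and 1 higher, and DESeq2 called 5 lower and 0 higher. The list was broad: it also held ATF1, CREB1 and CREM, whose pairing with FOS or JUN proteins was not checked. MAFF, a small MAF protein gene, fell from 38.4 ± 1.94 to 19 ± 2.85 CPM (n = 2 each; log2 fold change -1.01, edgeR adjusted p = 0.00497). The stress-induced repressor gene ATF3 fell from 36.7 ± 0.248 to 20.8 ± 0.423 CPM (-0.82, edgeR adjusted p = 0.00823). MAFK (-0.64), ATF4 (-0.59), the regulator of the amino acid response, and JDP2 (-0.71), a repressor that binds JUN, also fell. Without CYR61 1, ATF4 (edgeR adjusted p = 0.11), JDP2 (0.128) and MAFK (0.0508) were not called. Without vector 1, ATF4 (0.141) and JDP2 (0.158) were not. BATF3, the only member with an unadjusted p below 0.05 and a higher level, was at 2.81 and 2.99 CPM in vector and 4.7 and 4.64 CPM in CYR61 libraries (log2 fold change 0.68, edgeR adjusted p = 0.116), and it was called higher with the GC trend removed (0.69, edgeR adjusted p = 0.0308).

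Of 22 tested immediate-early genes outside the 10 (of 25 listed), 5 fell and 0 rose, with a median log2 fold change of -0.35. At an unadjusted p below 0.05, 13 were lower and 1 higher, and DESeq2 called 5 lower and 0 higher. DUSP1, which encodes a phosphatase of MAP kinases, fell from 122 ± 10.6 to 56.1 ± 12 CPM (n = 2 each; log2 fold change -1.12, edgeR adjusted p = 0.00268). PPP1R15A, a regulatory subunit of the eIF2alpha phosphatase, fell by 0.88 on the log2 scale, and ZFP36L1, an RNA-destabilising protein gene, by 0.81. ARC, known as a neuronal immediate-early gene, was scarce and fell by 1.44 (4.87 ± 0.734 to 1.82 ± 0.266 CPM). MCL1, an anti-apoptotic BCL2 family gene, fell by 0.63. Without vector 2, ARC (edgeR adjusted p = 0.0526) and MCL1 (0.174) were not called and the list held 3 called genes. With the GC trend removed, 12 of the 22 were called lower, beside 12.1% of all genes tested.

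Genes that feed signals into the 10 were called at a share near that of all genes. Of 26 tested genes of the ERK and JNK cascades, of serum response factor partners and of FOS and JUN turnover (of 27 listed), 1 fell (3.85%, beside 4.56% of all tested genes) and 0 rose, with a median log2 fold change of -0.10. By DESeq2 0 were called, and at an unadjusted edgeR p below 0.05, 2 were lower and 0 higher. RPS6KA5, encoding the kinase MSK1, which modifies chromatin at immediate-early genes, was at 12.9 and 15.1 CPM in vector and 9.21 and 7.77 CPM in CYR61 libraries (log2 fold change -0.72, edgeR adjusted p = 0.0484). The call was lost when vector 2 (edgeR adjusted p = 0.236) or CYR61 2 (0.0861) was left out, and with DESeq2 (0.0676), limma-voom (0.0549) or library size alone (0.073). The ERK gene MAPK3 (-0.23), the JNK genes MAPK8 (-0.20) and MAPK9 (-0.10) and the factor genes ELK1 (0.10), ELK3 (-0.43), MRTFA (0.00) and MRTFB (0.31) had log2 differences that were not called. ELK3, whose libraries did not overlap between groups, was called lower with the GC trend removed (-0.45, edgeR adjusted p = 0.0169). SRF, the gene of serum response factor itself and a member of the immediate-early list, was at 83.6 and 80.3 CPM in vector and 93.3 and 106 CPM in CYR61 libraries. Its log2 fold change was 0.28 (edgeR adjusted p = 0.196) and it was called higher with the GC trend removed (0.41, edgeR adjusted p = 0.00183). SRF, BATF3 and the genes of this paragraph other than RPS6KA5 were singled out after their values were seen. Transcript levels do not measure the activity of these kinases.

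Of 21 tested genes often cited as AP-1 targets (of 30 listed), 6 fell and 0 rose, with a median log2 fold change of -0.59; at an unadjusted p below 0.05, 13 were lower and 0 higher, and DESeq2 called 6 lower, IL11 not among them, and 0 higher. ITGA2, an integrin gene, fell from 65.4 ± 10.9 to 26.9 ± 2.88 CPM (n = 2 each; log2 fold change -1.28, edgeR adjusted p = 0.0016). The urokinase receptor gene PLAUR fell by 0.73 on the log2 scale and the laminin gene LAMB3 by 0.72. UPP1 (-0.65) and IL11 (-1.53) were also called. Without vector 1, PLAUR (edgeR adjusted p = 0.117), UPP1 (0.249) and IL11 (0.275) were not called, which left 3. UPP1 was also not called without CYR61 1 (edgeR adjusted p = 0.0863), nor IL11 by DESeq2 (0.0912) or limma-voom (0.0502). The metalloprotease genes MMP1, MMP3, MMP9, MMP10 and MMP13, the best known AP-1 targets, were below the level needed for the test. CCND1 (0.09) and HMGA1 (0.09) were not called. With the GC trend removed, 12 of the 21 were called lower, beside 12.1% of all genes tested. Many of these genes also respond to other factors, and binding of AP-1 was not measured.

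**Figure D4:**
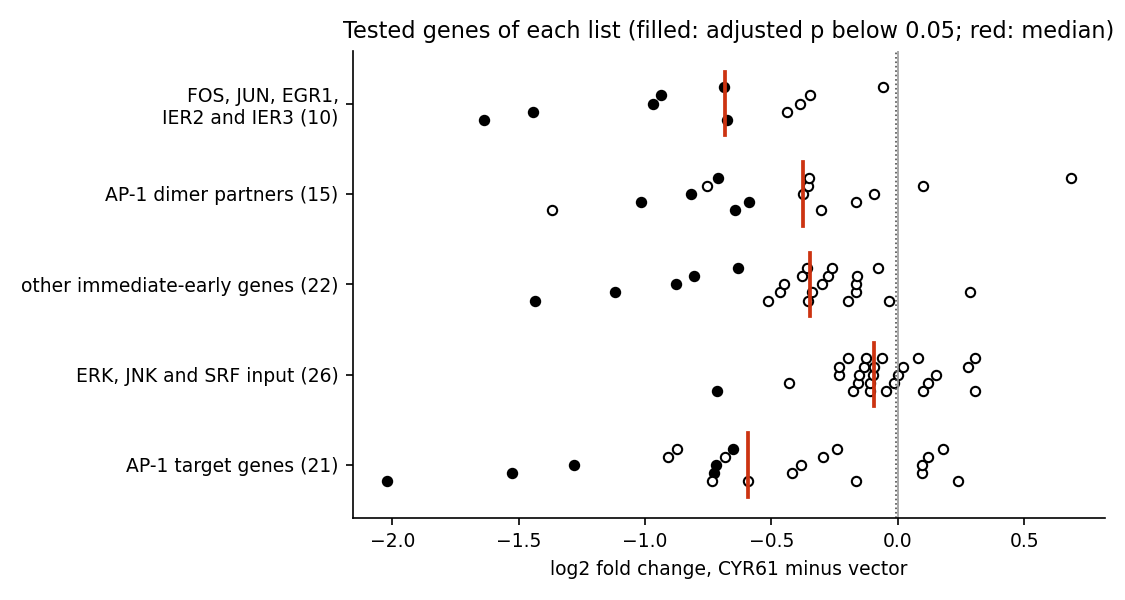
Log2 fold change (CYR61 minus vector) of every tested gene in the set of 10 and in 4 lists of pathway genes, filled where the edgeR adjusted p is below 0.05, with the list median in red and the median over all tested genes (-0.006) dotted. The medians are -0.68 for the 10 genes, -0.38 for dimer partners, -0.35 for other immediate-early genes, -0.10 for upstream genes and -0.59 for targets.

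The genes most like the 10 in their pattern over the 4 libraries were ZNF395, FHL2, ITPRIP, FBLN7 and JDP2. Likeness was the root mean square difference, over the 4 libraries, between the centred log2 CPM of a gene and the median centred profile of the 10 (0.42 for vector 1, 0.28 for vector 2, -0.44 for CYR61 1 and -0.26 for CYR61 2). It was 0.0148 for ZNF395 and 0.0223 for JDP2. FHL2, a LIM domain protein gene, was at 337 and 298 CPM in vector and 179 and 205 CPM in CYR61 libraries. With 4 libraries many genes share such a profile, and the measure is a description of these libraries.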

How the data were processed

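RNA-seq of HLE cells gave 4 libraries, 2 per group. The authors deposited estimated counts per Ensembl gene, of which 11.2% to 12% per library were not whole. Per the submitters' processing notes the tools were Cuffdiff 1.3.0, Cufflinks 2.2.1 and TopHat2 2.1.1 on hg38. Not given in the sources used here are the counting program, the annotation and the strandedness.

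Estimated counts were rounded and genes kept by filterByExpr, which left 12698 of 20286. Libraries were scaled by TMM, and the groups were compared by the quasi-likelihood test of edgeR 4.0.16 in R 4.3.3, with group as the one term and Benjamini-Hochberg adjustment over all tested genes and a threshold of 0.05. CPM uses TMM-scaled library sizes. The SE is the absolute log2 fold change over the square root of F, and intervals use the fit's degrees of freedom. Symbols came from a name table (20228 identifiers matched); positions, exon lengths and GC content (of the longest transcript) from GENCODE release 29 on GRCh38. Promoters are RefSeq's.

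The genes and lists were chosen with earlier results of these data known. The 10 genes are all named. From each other list up to 4 called genes of smallest adjusted p were named, or the 1 of smallest p, and so were the 5 genes of at least 10 CPM with the most similar profile (pseudocount 0.5 CPM). Other called genes of a list were added after their values were seen. Some list members counted in the text are not reported here by name.

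Alternatives were DESeq2 1.42.0, limma-voom (limma 3.58.1), scaling by library size alone, upper quartile or RLE, no filter, 5 CPM in 2 libraries, a replicate block, each library left out, CCN1 left out, and per-library GC trends removed (natural spline, 5 degrees of freedom), alone and with the block. On counts simulated for this comparison (12583 genes tested), edgeR recovered 44% of changes of 1.5-fold, 88% of 2-fold and 100% of 4-fold changes, with 14 false calls. The simulated libraries held no GC trend, and genes of like level were given a common spread. Changes were placed only in genes above a floor of expected counts. These rates therefore do not carry over to the real libraries. Chi-square per degree of freedom between replicates was 13.3 (vector) and 14.7 (CYR61), so no library was a copy of another.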

Additional observations from a re-analysis of the deposited data

How the results depend on the processing

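The number of the 10 genes called lower stayed between 4 (replicate block) and 8 under the alternatives, and IER3, EGR1, JUN and JUNB were called lower in each of the 16 alternatives. JUND turned sign with the GC trend removed, alone (0.10) or with the replicate block (0.10), and when vector 1 (0.04) or CYR61 1 (0.11) was left out, with a range of -0.23 to 0.11 over the libraries left out in turn. FOSL1 was not called with the replicate block (edgeR adjusted p = 0.0782; 0.0111 in the fit on group alone), nor was FOS (0.12). Calls over all genes numbered 811, and 481 (without vector 1) to 1331 (without CYR61 2) with 1 library left out, 1677 without a filter, 391 with the replicate block, 3635 with the GC trend removed and 2343 with both. Of all calls, 71.4% were lower. This was 59.8% by DESeq2, 42.2% with the GC trend removed and 86.4% with the block. Calls lower over all genes numbered 579 of 12698, and 338 of 12698 with the replicate block. They numbered 1533 of 12668 with the GC trend removed, 1027 of 12668 with both and 1029 of 16069 without a filter. Calls lower by DESeq2 numbered 560 of 11768, by limma-voom 555 of 12698 and with library size alone 519 of 12698. The list counts below are to be set beside these, setting by setting. For list counts with 1 library left out, the matching number over all genes is not reported here. Among dimer partners, 5 were lower, 2 with the replicate block, 9 with the GC trend removed and 2 to 5 with 1 library left out. Among other immediate-early genes 5 were lower, 12 with the GC trend removed and 3 to 5 with 1 library left out. Of the upstream genes 1 of 26 was lower. By DESeq2, limma-voom, library size alone and the replicate block 0 were (with 1 to 2 at an unadjusted p below 0.05). With the GC trend removed 3 of 26 were lower, where 12.1% of all genes were, and with both 2 of 26. Of the targets 6 of 21 were lower, 11 of 26 without a filter, 12 of 21 with the GC trend removed and 11 of 21 with both. For all of these the cause was not tested.

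The sample titles do not say whether libraries of the same replicate number form a pair. Deviations of same-numbered libraries correlated at -0.71. Within the groups these deviations correlated with GC content in opposite directions (-0.73 for vector and 0.78 for CYR61). Such a correlation cannot decide whether cultures were handled together. Crossed numbers as a block, chosen after seeing the data, called 5624 of 12698 genes, 2876 of them lower. Called lower were 8 of the 10, 10 of 15 dimer partners and 16 of 22 other immediate-early genes. So were 8 of 26 upstream genes and 15 of 21 targets. Depth limits FOSB and EGR1 most, with 70 to 216 counts per library.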
